A study of Rattus norvegicus with 18 samples.

Results

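Macrophages from sham-operated knees were compared at 12 and at 4 weeks after surgery, using the 9 sham libraries of the 18 in the series. They were chosen by their labels alone: 5 libraries came from 4 weeks and 4 from 12 weeks. The comparison asks how the control side of an osteoarthritis (OA) experiment changed between its early and its late time point. All animals were male, wild type Sprague Dawley rats operated at 12 weeks of age, so the sham rats were 16 weeks old at the first harvest and 24 weeks old at the second. A sham knee had its joint capsule opened (arthrotomy) without any ligament being cut, whereas OA knees, 5 libraries at 4 weeks and 4 at 12 weeks, had the anterior cruciate and medial meniscotibial ligaments transected. Synovium from the whole knee was dissociated, CD11b/c+ cells were taken by magnetic sorting, and each library was a pool of 4 rats at 4 weeks or of 3 rats at 12 weeks. Age, recovery from surgery, pool size and the separate processing of each time point all changed together and cannot be told apart in these data.

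Synovial macrophages line the joint cavity and occupy the tissue beneath it, where they clear debris, hold matrix turnover in check and release chemokines that call in other leukocytes. Activated macrophages typically make matrix proteases such as the elastase Mmp12, and cells of the same lineage that take the osteoclast route fuse and acquire acid-secreting and bone-resorbing enzymes. Immediate early genes and many chemokines are instead switched on within minutes to hours of a stimulus.

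The 9 libraries held between 4662344 and 18080503 reads assigned to genes, with the 4-week replicate 3 the shallowest. That library also detected the most genes, 25919 against 21820 to 24948 in the others, and lay at 69.0 on the first principal component, where the other 8 lay between -19.7 and 2.95. Ribosomal protein genes took 3.04% of its reads, against 1.51% to 1.93% elsewhere. Each main count is therefore also given without it. Itgam, which encodes the CD11b of the sort, ran from 206 to 578 CPM (reads per 1000000 assigned reads) at 4 weeks and from 277 to 450 at 12 weeks. Cd68, a lysosomal protein of macrophages, ran from 137 to 266 CPM and from 163 to 286 CPM. All 14 macrophage markers were tested and none passed, and they summed to 11303 to 15576 CPM over the 9 libraries. Beside them, 9 endothelial markers summed to 3871 to 5821 CPM and 13 fibroblast markers to 4477 to 10437 CPM. Which cells carried each called gene was not tested. In such bulk samples, fewer cells of a type and less RNA per cell cannot be told apart.

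**Figure D1:**
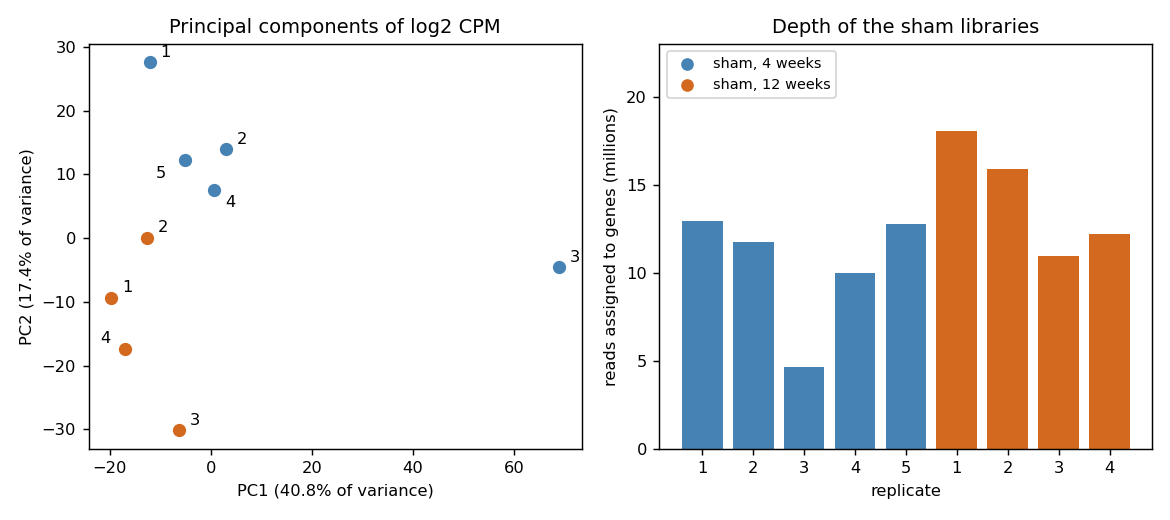
Left, the 9 sham libraries on the first and second principal components of log2 CPM, which carry 40.8% and 17.4% of the variance. Right, depth of each library in reads assigned to genes. Numbers are replicates, blue marks 4 weeks and orange 12 weeks: replicate 3 of 4 weeks stands alone on the first component, and the second has the 12-week libraries lower than the other 4 libraries of 4 weeks.

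Between 4 and 12 weeks, 26 genes rose and 14 fell in the sorted sham cells, of 14420 tested. A gene was called when limma's moderated test on log2 CPM gave a Benjamini-Hochberg adjusted p under 0.05 and the log2 fold change was at least 0.5 in size. The calls were 0.18% of tested genes upwards and 0.0971% downwards. The largest falls included the elastase Mmp12, the chemokine Ccl9 and the osteoclast proton pump subunit Atp6v0d2. The rises included the chemokines Ccl2, Ccl7 and Cxcl10, the stimulus-induced regulators Nr4a3 and Crem, and Gria2 and Negr1, which are best known from neurons. In each of the 40 the 2 groups of libraries did not overlap, which the choice of genes by a test on these same libraries favours. Over all genes, 2.93% had every 12-week library above every 4-week library and 2.42% had every one below.

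The count depended on single libraries. Without replicate 3 of 4 weeks 57 genes passed, 33 higher (0.229%) and 24 lower (0.166%), and 36 of the 40 were among them. Sdc1, Ptgir, Fbxl22 and Cxcl10 were the 4 lost, at adjusted p between 0.0513 and 0.0587. Without replicate 2, 4 or 5 of 4 weeks 9, 5 and 3 genes passed, and without replicate 1, 2 or 4 of 12 weeks 3, 6 and 4. Scaling to total reads without TMM gave 20 higher and 18 lower genes, and upper quartile scaling 19 and 17. The median over all genes lay at -0.00 on the log2 scale in the main test but at 0.21 when the deposited tables were joined without rescaling, and there 504 genes passed upwards and 31 downwards.

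With the replicate numbers of both time points as pairs (replicate block), 47 genes passed, but 19 were higher and 28 lower. Replicate 5 of 4 weeks, which has no partner, was left out of this fit. Leaving it out without pairs gave 3 genes. The block therefore differs from the main test by a missing library as well as by the pairs. Of the 40, 21 were kept (11 higher, 10 lower). Among those that missed the threshold there were Dgki, Eln, Ppp1r3c, Dgat1, Adamts15, Ptgir, Cd274, Fbxl22, Midn, Map3k8, Crem, Ccl2, Arid5a, Megf11, Ccl7, Icam5, Nfkbid and Negr1, and the adjusted p of all 19 that missed it lay between 0.0517 and 0.133. Ccl9, Mt3 and Gria2 passed under each of 27 alternative scalings, filters, tools and left-out libraries, with adjusted p up to 0.0465.

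**Figure D2:**
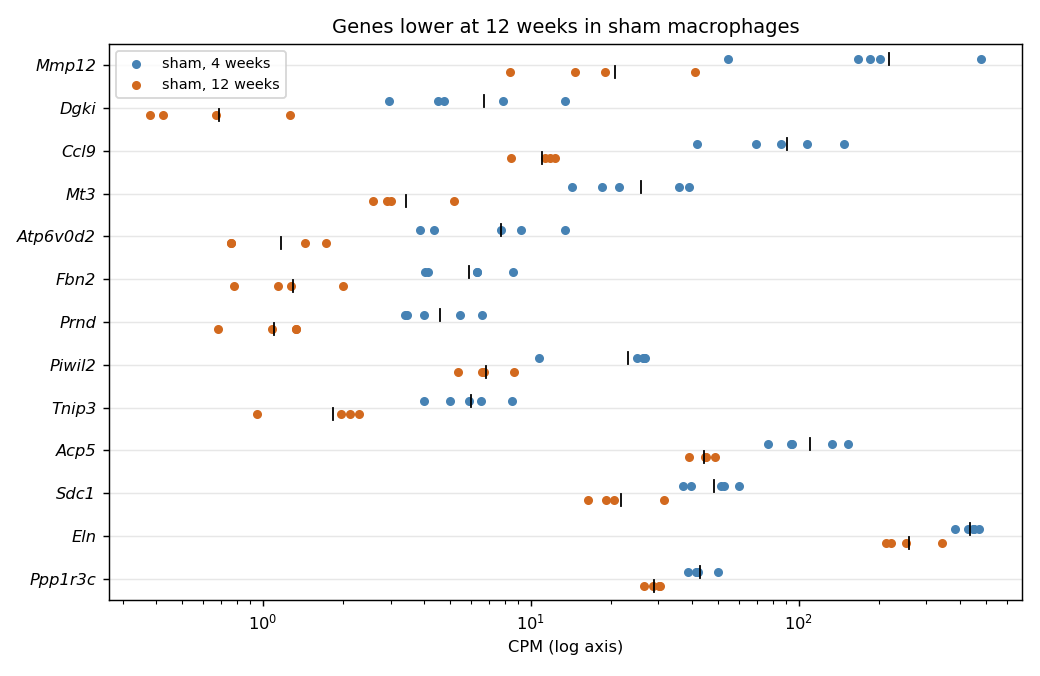
CPM, on a log axis, of 13 of the 14 genes lower at 12 weeks, one point per sham library (blue 4 weeks, n = 5; orange 12 weeks, n = 4), with the group mean as a black tick. In every row the orange points lie to the left of the blue ones without overlap.

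Mmp12, the macrophage elastase, had the largest fall. It stood at 479, 201, 54.7, 184 and 166 CPM in the 5 libraries of 4 weeks and at 41.0, 18.9, 8.38 and 14.7 CPM in the 4 of 12 weeks. Replicate 1 was the highest and replicate 3 the lowest at 4 weeks, and that lowest value was still above every 12-week library. The log2 fold change was -3.30 ± 0.56 (SE, adjusted p = 0.0413), about 9.83-fold lower on this scale. Eln, which encodes the elastin that Mmp12 cleaves, fell less, from between 382 and 470 CPM to 213, 221, 344 and 252 CPM (log2 fold change -0.78 ± 0.14, adjusted p = 0.0485). Fbn2, fibrillin 2 of the microfibrils on which elastin is laid down, was low throughout, at 4.04 to 8.62 CPM and then 0.779 to 2.00 CPM. Its log2 fold change was -2.05 ± 0.29 (adjusted p = 0.0251). Sdc1, a cell-surface heparan sulphate proteoglycan, fell by 1.16 on the log2 scale.

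Of 16 matrix protease genes tested, Mmp12 alone passed, beside 0.0971% of all genes downwards. The list's median log2 fold change was 0.02 (-0.04 on total reads without TMM) beside -0.00 for all genes. The gelatinase Mmp9, listed also with the neutrophil genes, stood at 65.9, 38.4, 34.5, 119 and 50.8 CPM and then at 16.6, 3.49, 6.86 and 21.2 CPM. These groups did not overlap, with a log2 difference of -2.51 ± 0.50, but the adjusted p was 0.0791 (0.00344 with the replicate block, and 0.00344 to 0.174 over all alternatives). Mmp13, a collagenase, differed by -2.05 ± 0.74 and overlapped between the groups. Adamts4, an aggrecan-cleaving protease, went the other way, by 1.14 ± 0.20 (adjusted p = 0.0512), from between 162 and 245 CPM to between 341 and 675 CPM. It passed without replicate 3 of 4 weeks (adjusted p = 0.0341) and in 15 of 27 alternatives, whose adjusted p ran from 7.42e-07 to 0.146. Its relative Adamts15 rose from between 64.7 and 71.7 CPM to 103, 92.3, 107 and 97.8 CPM (log2 fold change 0.54 ± 0.08, adjusted p = 0.0251). None of the 29 genes tested on the list of collagens and matrix passed in limma (median -0.22). An unadjusted p under 0.05 was reached by 8, all downwards, beside 5.49% of all genes. The list's mean log2 CPM overlapped between the times, at 6.84 to 7.67 and then 6.62 to 7.23. Cthrc1 differed by -1.13 ± 0.39 and Col11a1 by -0.95 ± 0.29.

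The osteoclast list held 2 of the fallers among its 6 tested genes, Atp6v0d2 and Acp5, beside 0.0971% of all genes. Atp6v0d2, a subunit of the proton pump that acidifies the resorption space, stood at 9.23, 3.88, 7.78, 13.4 and 4.35 CPM at 4 weeks and at 1.73, 0.762, 0.762 and 1.44 CPM at 12 weeks (log2 fold change -2.49 ± 0.37, adjusted p = 0.0308). These low levels rested on 37 to 134 reads and then on 8 to 31 reads per library. Acp5, the tartrate-resistant acid phosphatase, had 152, 94.8, 77.2, 133 and 93.7 CPM and then 44.8, 39.1, 45.3 and 48.9 CPM (log2 fold change -1.26 ± 0.18, adjusted p = 0.0251). The 4-week libraries spread from 77.2 to 152 CPM while the 12-week libraries lay close together.

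The collagen-digesting cathepsin Ctsk followed Acp5 in size, at -1.27 ± 0.31, without passing (adjusted p = 0.138, with 0.0364 under the replicate block and 0.00163 to 0.380 over the alternatives). It stood at 161, 65.7, 84.1, 192 and 65.4 CPM and then at 45.5, 36.2, 43.8 and 45.0 CPM. Oscar, an osteoclast co-receptor, differed by -1.15 ± 0.36 and Itgb3, its attachment integrin, by -0.75 ± 0.17, both short of the threshold. Nfatc1, the master transcription factor of the lineage, overlapped between the times: it ran from 46.7 to 92.6 CPM at 4 weeks and from 72.7 to 83.7 CPM at 12 weeks. The list's median was -1.21, 5 of its 6 genes had an unadjusted p under 0.05 downwards (5.49% of all genes did), and its summed level was 240 to 461 CPM and then 161 to 193 CPM. Most genes of the chondrocyte and neutrophil lists had negative differences too, with overlapping sums, while 49.4% of all genes were positive. Chondrocyte and osteoblast genes had a median of -0.57 (6 of 7 tested negative, 0 called), summed to 71.7 to 435 CPM and then 97.2 to 249 CPM, and were highest in replicate 4 of 4 weeks, as was the osteoclast list. Neutrophil genes had a median of -0.55 (10 of 11 negative, 0 called), summed to 183 to 519 CPM and then 125 to 437 CPM, and were highest in the same library. Their part in the osteoclast values was not tested. Ocstamp and Calcr fell under the filter on low values, with 7 to 44 and then 0 to 17 reads for Ocstamp and 5 to 13 and then 6 to 18 reads for Calcr.

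Ccl9, a CC chemokine of rodents that osteoclasts and their precursors also make, was among the 3 most stable results. It stood at 148, 85.9, 41.9, 107 and 69.1 CPM and then at 12.4, 11.8, 8.48 and 11.3 CPM. The 12-week libraries were all low and close together, and the log2 fold change was -2.91 ± 0.29 (adjusted p = 0.00662). Mt3, a metallothionein that binds zinc and copper, had 39.0, 18.4, 21.5, 35.8 and 14.2 CPM and then 3.01, 2.92, 2.57 and 5.18 CPM (log2 fold change -2.80 ± 0.30, adjusted p = 0.00662). Mt1, another metallothionein on the glucocorticoid list, moved the opposite way, by 1.28 ± 0.41, but its adjusted p was 0.272.

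Dgki, a diacylglycerol kinase, fell from 4.77, 2.97, 13.5, 7.89 and 4.51 CPM to 0.668, 1.27, 0.381 and 0.425 CPM (log2 fold change -2.93 ± 0.43, adjusted p = 0.0251). Its highest value was in replicate 3 of 4 weeks, the library that stood apart, and its 12-week reads numbered 4 to 20. Piwil2, an argonaute protein known from the germ line, had 26.6, 25.0, 10.7, 26.5 and 26.3 CPM and then 8.68, 6.73, 6.57 and 5.35 CPM, a log2 fold change of -1.67 ± 0.26 (adjusted p = 0.0308). Here replicate 3 was the lowest of 4 weeks by far. Further fallers were Prnd, a prion-like protein (-1.89 ± 0.26), Tnip3, an inhibitor of NF-kB signalling (-1.65 ± 0.28), and Ppp1r3c, which brings a phosphatase to glycogen (-0.56 ± 0.09).

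**Figure D3:**
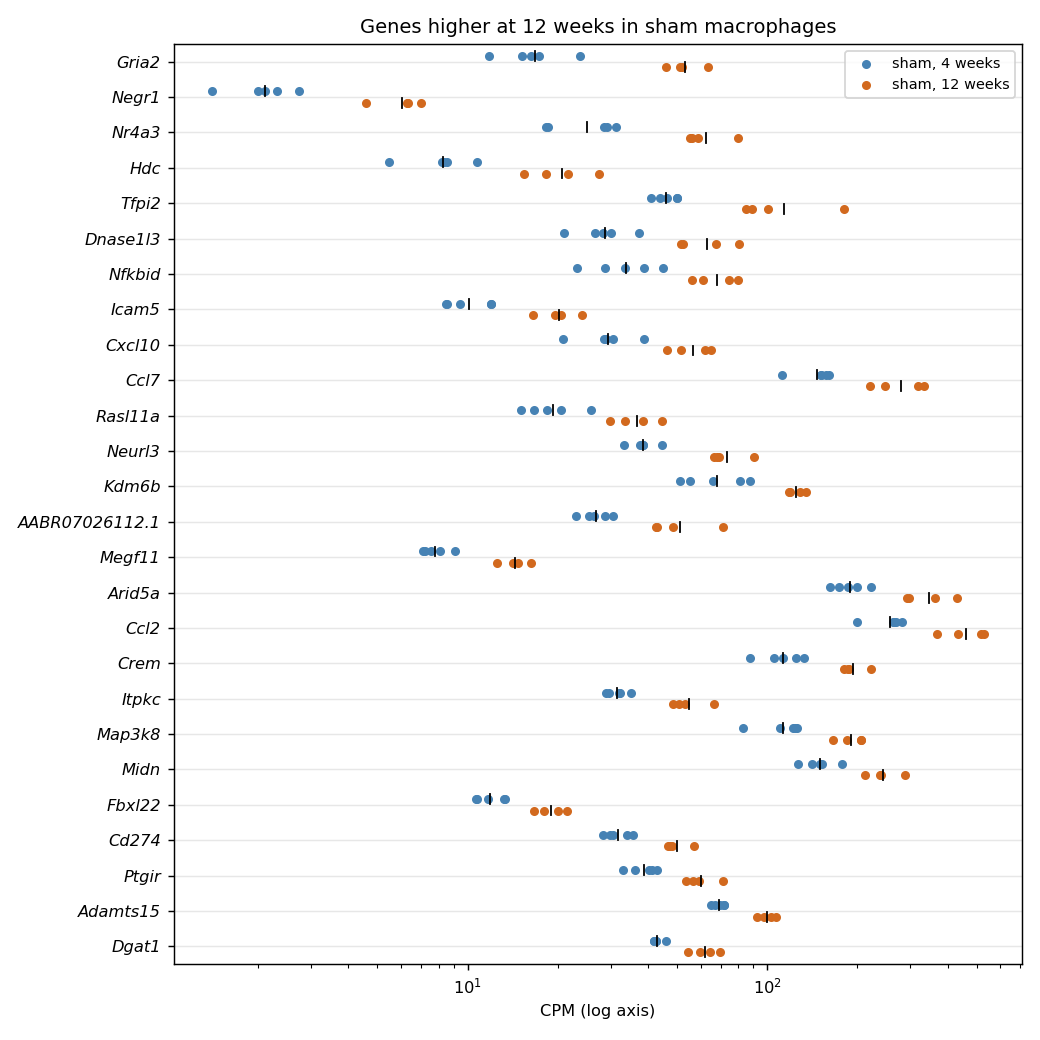
CPM, on a log axis, of the 26 genes higher at 12 weeks, one point per sham library (blue 4 weeks, n = 5; orange 12 weeks, n = 4), with the group mean as a black tick. In every row the orange points lie to the right of the blue ones, by less than in the largest falls.

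Of the 20 genes tested on the chemokine list, 3 passed upwards and 0 downwards, while Ccl9, which is not on that list, fell. Over all genes 0.18% passed upwards and 0.0971% downwards. Ccl2 and Ccl7 are neighbouring genes for chemokines that attract monocytes through the receptor Ccr2. Ccl2 stood at 283, 266, 199.6, 263 and 270 CPM and then at 369, 432, 529 and 516 CPM (log2 fold change 0.84 ± 0.14, adjusted p = 0.0367). Ccl7 had 151, 151, 112, 157 and 161 CPM and then 221, 248, 334 and 320 CPM (0.93 ± 0.15, adjusted p = 0.0316). In both, replicate 3 was the lowest library of 4 weeks and the other 4 lay close together. Neither passed with the replicate block, at adjusted p of 0.0920 for Ccl2 and 0.0660 for Ccl7. Nor did either pass without replicate 4 of 12 weeks, at 0.138 and 0.127. Cxcl10, an interferon-induced chemokine for T cells, had 38.8, 29.0, 30.5, 28.5 and 20.8 CPM and then 62.2, 65.1, 46.4 and 51.7 CPM (0.94 ± 0.17, adjusted p = 0.0485).

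Over the list, 17 of 20 genes had a positive log2 fold change, as did 49.4% of all genes, and the median was 0.32. Unadjusted p-values under 0.05 were reached upwards by 8 (6.28% of all genes) and downwards by 1, Cxcl16, at -0.48 ± 0.13. Ccl5 differed by 1.21 ± 0.27 at 0.700 to 1.89 and then 2.79 to 3.45 CPM, and Cxcl13 by 0.91 ± 0.22, with adjusted p of 0.12 and 0.139. Ccl2, also on the list of nerve growth and pain mediators, was the 1 gene of 10 tested there that passed, beside 0.18% of all genes upwards.

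Several rises were of regulatory genes known to respond to stimulation. Nr4a3, an orphan nuclear receptor of the immediate early class, stood at 29.1, 18.6, 18.3, 31.2 and 28.5 CPM and then at 55.2, 56.2, 80.0 and 58.5 CPM (log2 fold change 1.33 ± 0.19, adjusted p = 0.0251). Nfkbid, an atypical IkB protein of the nucleus, had 44.8, 28.6, 23.1, 38.8 and 33.4 CPM and then 56.2, 61.1, 79.8 and 74.8 CPM (1.03 ± 0.18, adjusted p = 0.0485). Crem, a cAMP-responsive factor, had 132, 105, 87.9, 112 and 125 CPM and then 181, 186, 222 and 187 CPM (0.79 ± 0.12, adjusted p = 0.0308). For Nr4a3 and Crem, replicate 3 of 12 weeks was the highest and the other 3 late libraries lay together.

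Other rises were of smaller size. Kdm6b, a demethylase of histone H3, rose by 0.91 ± 0.15, Arid5a, which stabilises inflammatory transcripts, by 0.87 ± 0.13, and Map3k8, a kinase of the Toll-like receptor pathway, by 0.76 ± 0.13. Midn, which feeds nuclear proteins to the proteasome, rose by 0.71 ± 0.12 and Itpkc, a kinase of inositol trisphosphate, by 0.78 ± 0.11. Neurl3, a ubiquitin ligase, rose by 0.92 ± 0.12, and Cd274, the checkpoint ligand PD-L1, by 0.65 ± 0.10.

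Of the 19 immediate early genes, all tested, only Nr4a3 passed, beside 0.18% of all genes upwards. All 19 had a positive log2 fold change, as did 49.4% of all genes, and the median was 0.43. An unadjusted p under 0.05 upwards was reached by 15 (6.28% of all genes). The mean log2 CPM of the list was 8.39 to 8.93 at 4 weeks and 9.03 to 9.36 at 12 weeks, without overlap. Of 49 gene lists, 7 in all had levels without overlap. Without replicate 3 of 4 weeks the median was 0.37 and 14 had an unadjusted p under 0.05. Nr4a1 differed by 0.82 ± 0.18 and Zfp36, which destabilises cytokine transcripts, by 0.80 ± 0.27. Zfp36 stood at 414 CPM in replicate 3 of 4 weeks against 873 to 1181 CPM in the other 4 of that time.

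Promoters of called genes were examined because 3 chemokine genes rose together. Ccl2, one of the 3, is not among the genes with a match to any of the 5 motifs below. Genes without an upstream sequence were not searched, and whether Ccl2 was one of them is not given here. RefSeq (build GRCr8) gave an upstream sequence for 29 of the 40 genes, 19 higher and 10 lower, and the first 250 bases before each start were searched on both strands for 5 short motifs chosen with the calls known. The NF-kB motif GGGANNTTC was in 4 of the 19 higher genes (Ccl7, Cxcl10, Midn, Tfpi2) and in 0 of the 10 lower ones, beside 3.55% of 27457 genes. The AP-1 motif TGANTCA was in 4 higher genes (Ccl7, Cxcl10, Map3k8, Tfpi2) and in 1 lower gene, Mmp12, beside 6.99%. The cAMP element TGACGTCA was in Crem alone, beside 1.78%. The interferon motif GAAANNGAA was in 3 higher genes (Cd274, Cxcl10, Negr1) and no lower one, beside 8.66%, and the E-box CACGTG in no higher gene and 3 lower ones (Mmp12, Ppp1r3c, Prnd), beside 6.18%.
The first 3 promoters below hold a match to both the NF-kB and the AP-1 search pattern. The fourth is the start of Crem with its match nearest to the gene, and the fifth is Mmp12. N stands for any base, so the AP-1 matches are loose and differ in the middle. It is TGAGTCA in Cxcl10 and Mmp12, TGATTCA in Ccl7 and TGAATCA in Tfpi2. Whether any factor binds these stretches was not tested. Capitals mark matches to the NF-kB, AP-1 and cAMP motifs, read 5′ to 3′ on the strand of the gene, and the last base is the one before the start.
Cxcl10 (chr14:15988816-15989065, plus strand): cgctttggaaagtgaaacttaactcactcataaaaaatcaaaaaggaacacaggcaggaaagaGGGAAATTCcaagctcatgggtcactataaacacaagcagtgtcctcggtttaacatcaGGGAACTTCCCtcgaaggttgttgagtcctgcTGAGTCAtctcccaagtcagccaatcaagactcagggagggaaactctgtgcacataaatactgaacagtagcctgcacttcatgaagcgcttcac
Ccl7 (chr10:67513845-67514094, plus strand): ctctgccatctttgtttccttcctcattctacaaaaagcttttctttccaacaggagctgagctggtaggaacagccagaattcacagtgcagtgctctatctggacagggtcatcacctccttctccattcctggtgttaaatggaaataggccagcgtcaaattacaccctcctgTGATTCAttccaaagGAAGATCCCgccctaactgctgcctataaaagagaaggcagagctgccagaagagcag
Tfpi2 (chr4:32941277-32941526, minus strand): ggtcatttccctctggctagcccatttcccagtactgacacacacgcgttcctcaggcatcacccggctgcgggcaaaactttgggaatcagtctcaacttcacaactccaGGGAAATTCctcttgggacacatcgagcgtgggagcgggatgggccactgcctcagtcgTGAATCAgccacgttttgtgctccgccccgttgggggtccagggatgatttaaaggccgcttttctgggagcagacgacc
Crem (chr17:58985240-58985489, plus strand): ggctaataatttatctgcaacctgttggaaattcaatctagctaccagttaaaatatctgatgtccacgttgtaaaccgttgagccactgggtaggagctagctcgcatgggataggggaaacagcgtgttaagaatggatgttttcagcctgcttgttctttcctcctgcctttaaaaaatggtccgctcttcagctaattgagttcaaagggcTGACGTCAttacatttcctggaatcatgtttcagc
Mmp12 (chr8:12866402-12866651, plus strand): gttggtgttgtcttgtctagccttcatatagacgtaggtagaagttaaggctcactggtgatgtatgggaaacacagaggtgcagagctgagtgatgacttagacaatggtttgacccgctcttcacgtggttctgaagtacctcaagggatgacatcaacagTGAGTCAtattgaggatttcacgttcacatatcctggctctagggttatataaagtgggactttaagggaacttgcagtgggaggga
In Cxcl10 the NF-kB matches began 187, 128 and 126 bases before the start, the last pair overlapping, and the AP-1 match 96 bases before it. In Ccl7 they began 58 and 73 bases before the start, and in Tfpi2 139 and 80. The match of Crem began 35 bases before the start, and the AP-1 match of Mmp12 began 87 bases before it.

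Gria2, a subunit of the AMPA glutamate receptor, had the largest rise. It stood at 16.2, 23.7, 11.8, 17.3 and 15.2 CPM at 4 weeks and at 51.0, 51.9, 45.8 and 63.5 CPM at 12 weeks, 3.19-fold higher on the log2 scale (1.67 ± 0.17, adjusted p = 0.00662). Reads of the gene numbered 56 to 287 and then 481 to 917 per library. Negr1, an adhesion protein of neuronal growth, was at 2.31, 1.40, 2.73, 2.00 and 2.10 CPM and then at 7.01, 6.35, 4.57 and 6.29 CPM (1.46 ± 0.21, adjusted p = 0.0251). Icam5, an adhesion molecule first described in the forebrain, rose by 0.99 ± 0.15 at 8.50 to 12.0 and then 16.5 to 24.1 CPM. Megf11, a receptor with EGF-like repeats, rose by 0.88 ± 0.12. None of 8 Schwann cell markers passed, and their median was -0.20 (0.01 on the deposited values without rescaling), with a summed level of 411 to 470 CPM and then 429 to 477 CPM.

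Tfpi2, an inhibitor of serine proteases such as plasmin, stood at 43.8, 46.1, 49.8, 40.9 and 49.8 CPM and then at 101, 85.2, 181 and 89.0 CPM (log2 fold change 1.23 ± 0.19, adjusted p = 0.0308). The spread at 12 weeks came from replicate 3. Dnase1l3, a secreted nuclease that digests DNA of dead cells, had 21.0, 37.5, 26.7, 30.1 and 28.4 CPM and then 52.3, 67.6, 51.6 and 80.8 CPM (1.13 ± 0.17, adjusted p = 0.0308). Dgat1, which completes triglycerides, rose by 0.52 ± 0.09, and Ptgir, the prostacyclin receptor, by 0.63 ± 0.11. Rasl11a, a small GTPase-like protein, rose by 0.93 ± 0.16, Fbxl22, an F-box protein of muscle, by 0.67 ± 0.12, and the gene model AABR07026112.1 by 0.91 ± 0.15.

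Hdc, which makes histamine and is a marker of mast cells, stood at 8.23, 8.34, 5.47, 10.8 and 8.55 CPM and then at 15.4, 21.6, 18.3 and 27.5 CPM (log2 fold change 1.30 ± 0.20, adjusted p = 0.0308). It was the only mast cell gene of 9 tested to pass, beside 0.18% of all genes upwards. All 9 had a positive log2 fold change, as did 49.4% of all genes, with a median of 0.64. The mast cell protease genes Cpa3 and Tpsab1 differed by 0.64 ± 0.24 and 0.77 ± 0.33 with overlapping groups. Summed over the list the level was 165 to 268 CPM at 4 weeks and 235 to 396 CPM at 12 weeks, and the part of mast cells in the Hdc value was not tested.

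**Figure D4:**
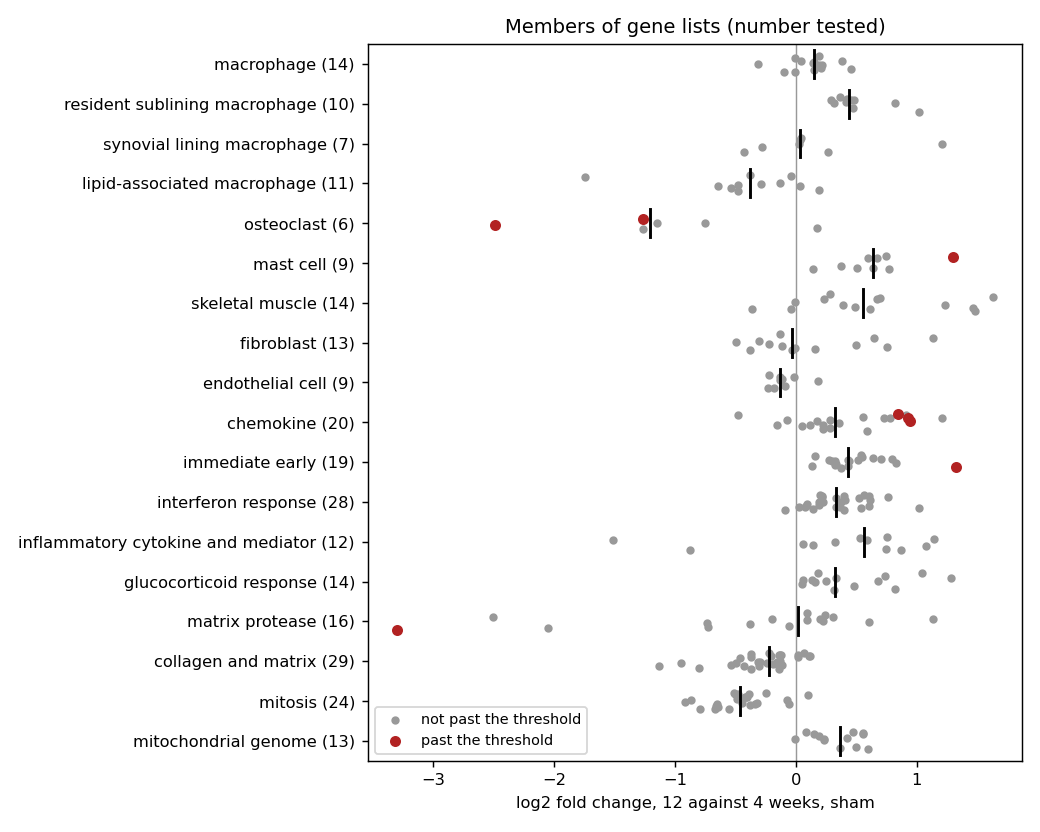
Log2 fold change, 12 against 4 weeks in sham, of each tested member of 18 gene lists (grey points), with called members in red and the median of the list as a black bar. The osteoclast bar lies farthest left at -1.21 and the immediate early, mast cell and resident sublining bars lie right of 0.

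Of 49 gene lists, 43 held no called gene, and their medians ran from -0.57 to 0.67. Over all genes 49.4% were positive, and 6.28% had an unadjusted p under 0.05 upwards. Resident sublining macrophage genes, which mark long-lived macrophages around vessels, were all positive (10 of 10 tested, 7 with an unadjusted p under 0.05, median 0.44). Siglec1, a sialic acid receptor of such cells, stood at 181, 132, 127, 216 and 193 CPM and then at 565, 402, 175 and 326 CPM (1.02 ± 0.29, adjusted p = 0.222). The 12-week replicate 3 fell inside the range of 4 weeks. Cd163, the haemoglobin scavenger receptor, had 532, 920, 605, 867 and 809 CPM and then 1326, 1203, 1049 and 1660 CPM without overlap (0.82 ± 0.19, adjusted p = 0.131). Among general macrophage markers, Mrc1 and Mertk differed most, by 0.45 ± 0.17 and 0.38 ± 0.11.

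Lining macrophage genes had a median of 0.04 over 7 tested (-0.02 on total reads without TMM), with the complement receptor Vsig4 at 1.21 ± 0.24 (adjusted p = 0.0791, with 0.0465 under the replicate block and 6.86e-06 to 0.270 over the alternatives) and Sparc at -0.43 ± 0.19. Lipid-associated macrophage genes had a median of -0.38 over 11 tested, 9 of them negative, while 49.4% of all genes were positive. Spp1, the osteopontin gene, stood at 2054, 471, 309, 539 and 298 CPM and then at 335, 272, 49.4 and 154 CPM, with overlap (-1.75 ± 0.63, adjusted p = 0.319, with 0.0361 under the replicate block and up to 0.576 over the alternatives). Its 4-week replicate 1 was the highest, as for Mmp12. The tetraspanin Cd9 differed by -0.64 ± 0.16 and the lysosomal lipase Lipa, listed with the lysosome genes too, by -0.53 ± 0.15.

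Of 12 inflammatory cytokines and mediators tested, none passed and the median was 0.56. Il1rn, the interleukin 1 receptor antagonist, stood at 187, 86.3, 40.0, 86.9 and 67.8 CPM and then at 34.3, 38.7, 20.1 and 25.7 CPM, without overlap (-1.51 ± 0.36, adjusted p = 0.133). It passed without replicate 3 of 4 weeks (adjusted p = 0.0405) and with the replicate block (0.0354), in 8 of 27 alternatives whose adjusted p ran from 0.000368 to 0.387. Il10 differed by 1.15 ± 0.29 (adjusted p = 0.151, with 0.0173 under the replicate block and 0.00799 to 0.430 over the alternatives) and Il6 by 1.08 ± 0.28. Il6 owed its highest value, 142 CPM, to replicate 3 of 12 weeks, where the other 3 lay at 54.5 to 62.8 CPM.

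Interferon response genes were positive in 27 of 28, with a median of 0.33 and 8 at an unadjusted p under 0.05. The shares over all genes were 49.4% positive and 6.28% at an unadjusted p under 0.05 upwards. Oasl, an antiviral protein, differed by 1.02 ± 0.24 and Mx2 by 0.76 ± 0.36. All 14 glucocorticoid response genes tested were positive (median 0.33), led by Mt1 and the decoy receptor Il1r2 (1.04 ± 0.28). Tnfaip3, the A20 enzyme that restrains NF-kB, led the Toll-like receptor list at 0.93 ± 0.21 (adjusted p = 0.124). Among circadian genes 14 of 16 were positive (median 0.30), with the clock output factor Tef at 0.53 ± 0.12. None of these lists held a called gene.

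Mitosis genes were negative in 23 of 24 (median -0.46, while 49.4% of all genes were positive), with Ube2c at -0.92 ± 0.37 and Nusap1 at -0.87 ± 0.38. Only 2 had an unadjusted p under 0.05, both downwards (5.49% of all genes did), and the list's mean log2 CPM was highest, at 4.44, in a 12-week library. Transcripts of the mitochondrial genome were positive in 12 of 13 (median 0.37), with Mt-cyb at 0.60 ± 0.20. Their summed level overlapped between the times, at 8765 to 16561 CPM and then 9795 to 15478 CPM. Glycolysis genes had a median of -0.24 and included the glucose transporter Slc2a1 at -0.56 ± 0.16. Skeletal muscle genes, which no macrophage is known for, had a median of 0.55 over 14 tested, with Acta1 at 1.48 ± 0.39, Mb at 1.46 ± 0.29 and Myh7 at 1.63 ± 0.40. Their summed level was 56.1 to 143 CPM and then 110 to 125 CPM, and Mb and Acta1 passed without replicate 3 of 4 weeks (adjusted p = 0.0161 and 0.0294, over ranges of 7.42e-07 to 0.257 and 1.44e-07 to 0.428). Fibroblast genes had a median of -0.03 (0.18 on the deposited values without rescaling), with Prg4, the lubricin gene, at 1.14 ± 0.36 and Pdpn at 0.76 ± 0.18, and endothelial genes a median of -0.13 (0.08 without rescaling).

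The OA libraries gave the same contrast in separate rats harvested at the same 2 times. There 272 genes rose (1.89%) and 113 fell (0.784%). Of the 40 genes called in sham, 39 had the same direction in OA, as had 68.1% of all genes, and 19 were called there too, 16 of the 26 that rose and 3 of the 14 that fell (Prnd, Sdc1, Eln). Adamts15 was the exception, at -0.07 ± 0.10 in OA.

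**Figure D5:**
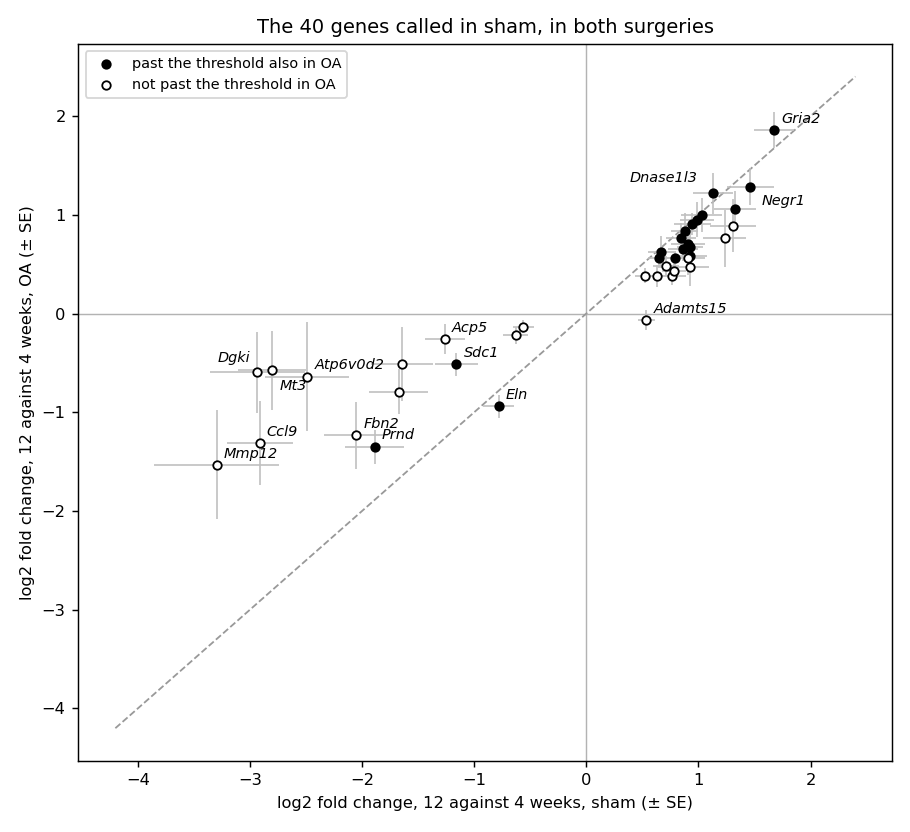
Log2 fold change from 4 to 12 weeks in sham (horizontal) and OA (vertical) for the 40 genes called in sham, each with its standard error. The dashed line marks equal change: most risers lie near it, while fallers such as Dgki, Mt3 and Atp6v0d2 lie well above it, nearer to 0 in OA.

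Among the fallers, 13 of 14 lay nearer to 0 in OA, where their median log2 fold change was -0.62 against -1.78 in sham. Among the risers 24 of 26 were smaller in OA, with medians of 0.66 and 0.91. Because the 40 were chosen by their change in sham, smaller values in OA are favoured by the choice itself. Mmp12 averaged 217 ± 157 CPM (SD, n = 5) and 20.7 ± 14.2 CPM (SD, n = 4) in sham but 91.5 ± 62.2 and 32.9 ± 30.0 CPM in OA. Mt3 in OA ran from 5.19 to 15.7 CPM and then from 3.31 to 13.7 CPM, so that there the times overlapped. Gria2 rose in OA too (1.86 ± 0.18), with 8.26 to 16.5 CPM and then 34.0 to 37.4 CPM.

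The difference between the 2 surgeries in the change over time was tested in 1 fit of all 18 libraries, and no gene passed: the smallest adjusted p of the 40 was 0.962 in limma. Over all genes 432 had an unadjusted p under 0.05 there, with 0 called and 473 by edgeR and 0 called and 527 by DESeq2. The sham change that chose the 40 is itself a term of this difference, so intervals off 0 are favoured by the choice and are given as a description. The difference, OA less sham, was 2.23 for Mt3 (95% interval 1.07 to 3.38), 2.36 for Dgki (1.03 to 3.68), 1.00 for Acp5 (0.46 to 1.54) and -0.60 for Adamts15 (-0.87 to -0.34). For Mmp12 it was 1.76 (-0.05 to 3.58) and for Gria2 0.18 (-0.38 to 0.74), which leaves room for no difference and for changes of either sign.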

How the data were processed

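CD11b/c+ synovial cells were profiled by 100 base-pair paired-end total RNA sequencing with a stranded kit. The authors aligned reads to Rnor_6.0 with STAR (2.7.6a), removed duplicates, counted genes with featureCounts (2.0.0) and normalized each time point apart with DESeq2 (1.24.0). Whether featureCounts used the strand is not given in the sources used here, so genes with an antisense partner are uncertain. The deposited values are a signal: gene counts divided by size factors, in 1 table per time point. Columns of the authors' own comparisons (fold changes and p-values) were not used, and 0 columns were left unmapped.

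Whole reads were recovered from the smallest step in each library (100% of values whole within 0.1 read), and both tables were joined by gene identifier. The 14420 genes whose average normalized value reached 10 in each table were scaled together by TMM, converted to log2 CPM with a prior count of 2 and tested with limma (3.58.1, trend, R 4.3.3). Adjusted p-values are Benjamini-Hochberg over all genes tested, and intervals are 95%. Alternatives used edgeR (4.0.16), DESeq2 (1.42.0), sva (3.50.0), and other priors, filters, scalings and left-out libraries. The scripts were tested on simulated data. Pools of different rats are the replicates.

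Replicate numbers shared by both times were checked as pairs by the correlation of deviations from the group means. It was 0.118 to 0.216 in the 4 same-numbered pairs and -0.243 to 0.116 in the differently numbered ones, so the replicate block is reported. No label says that the numbers mark pairs. Replicate 5 of 4 weeks has no partner and was left out of the block.

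Depth was 4662344 to 18080503 reads per library, and precision for low genes is limited by counting error. The comparison, gene lists and genes were chosen with earlier results of these data known. Named genes were the 12 largest rises and falls, up to 4 called or else 2 tested members of each list, Itgam and Cd68. The other called genes, motifs, Nfatc1 and further list members (Ctsk, Oscar, Itgb3, Mmp9, Mmp13, Adamts4, Ccl5, Cxcl13, Cxcl16, Nr4a1, Zfp36, Il6, Cpa3, Tpsab1, Mb, Lipa) were chosen after their values were seen. Python 3.11.15 with scipy 1.17.1 was used for tables. The values of 1 called gene are not reported here, though it is in the counts.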

Additional observations from a re-analysis of the deposited data

Results flagged for a closer look

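Each value of a named gene, and 5 measures of each library, was compared with the other libraries of its group by Dixon's test at 95%, 174 times in all, and 16 stood apart. Chance alone gives about 1 in 20.

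In replicate 3 of 4 weeks, Ccl7 stood at 112 CPM (151 to 161 in the other 4), Ccl2 at 199.6 (263 to 283), Piwil2 at 10.7 (25.0 to 26.6) and Zfp36 at 414 (873 to 1181). The same library gave 3.04% of its reads to ribosomal protein genes (1.62% to 1.85%) and 1.21% to genes under the filter on low values (0.208% to 0.345%). In replicate 1 of 4 weeks Dgat1 stood at 46.0 CPM (41.9 to 42.6) and Slc2a1 at 74.4 (41.2 to 47.4).

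In replicate 3 of 12 weeks, Nr4a3 stood at 80.0 CPM (55.2 to 58.5 in the other 3), Crem at 222 (181 to 187), Cd274 at 56.9 (46.8 to 48.1), Il6 at 142 (54.5 to 62.8), Adamts4 at 675 (341 to 368) and Cthrc1 at 6.86 (1.65 to 2.06). In replicate 4 of 12 weeks Neurl3 stood at 90.3 CPM (66.2 to 69.1), and in replicate 2 Ctsk at 36.2 (43.8 to 45.5). What sets replicate 3 of either time apart was not tested.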

How the results depend on the processing

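Of 29 alternatives for sham, 15 left the count of called genes within 1.5 times 40. It was 25 with every gene of at least 1 read, 18 at a fold-change minimum of 1, 260 with sample quality weights, 95 with 1 surrogate variable, 190 with all 18 libraries in the fit, 224 by DESeq2 and 535 on the deposited values without rescaling. Leaving out each library in turn gave 3 to 57. With replicate 3 of 4 weeks left out, chosen after seeing the data, edgeR gave 56 and DESeq2 329. The replicate block, which also leaves out replicate 5 of 4 weeks, gave 47. The cause of these differences was not tested.

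The difference between OA and sham gave 0 genes except with DESeq2 without replicate 3 of 4 weeks, which gave 3. In OA alone 385 genes passed, 787 without a fold-change minimum, 237 with the replicate block and 174 to 437 with a library left out. None of the called or other named genes changed direction. Over all genes and alternatives, called genes kept the call 745 times and lost it 329 times. Of 1321 recomputed list medians, 31 moved by more than the spread between libraries. Low genes such as Dgki and Atp6v0d2 rest on few reads at 12 weeks. Standard errors and intervals of fold changes come from limma's moderated variance between libraries.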

Other observations

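Some genes missed the filter on low values because their mean in the 12-week table was under 10 normalized reads, and their reads are given here as values, chosen after they were seen. Acod1, which makes itaconate in activated macrophages, had 151, 112, 5, 51 and 38 reads in the 5 sham libraries of 4 weeks and 7, 7, 4 and 10 reads in the 4 of 12 weeks. Scaled to library size it ran from 1.05 to 11.6 CPM and then from 0.381 to 0.850 CPM, without overlap, with the lowest 4-week value in replicate 3. Fbp1, a gluconeogenic enzyme, had 78, 21, 15, 11 and 17 reads and then 5, 3, 2 and 1. No test is given for either gene, since each would enter one only through its 4-week level.

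Leaving out replicate 3 of 4 weeks added 21 genes. The largest additional fall was in Slco4a1, an organic anion transporter (-2.38 ± 0.37), followed by Slamf6, a receptor of lymphocytes (-2.02 ± 0.32). Clec5a, a myeloid lectin receptor, fell by 1.11 and Gys1, the muscle glycogen synthase, by 0.62 on the log2 scale. Among the additional rises were Clec3b, tetranectin (0.91 ± 0.12), Pla2g2a, a secreted phospholipase (1.04 ± 0.15), and Sik1, a cAMP-induced kinase (0.56 ± 0.09).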
